A study of Mus musculus with 10 samples.

Results

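The 9 genes described here regulate apoptosis, the programmed death of a cell: Bmf, Bcl2l11, Bbc3, Bid, Bax, Bak1, Mcl1 and Bcl2l1 of the BCL2 family, and Cflar, which acts at death receptors. They were taken by symbol from the table of log2 expression values that the authors deposited. All 9 were among its 11617 listed genes, and all 9 were among the 11407 genes that passed the filter on low values. Macrophages were grown from the bone marrow of C57BL/6 mice with 10% serum and GM-CSF, a myeloid growth factor, at 50 ng/ml. The mice were aged 7 weeks by the growth protocol and 6 weeks by another label. The groups were untreated control cells, for which no time is given, cells that received AmTARS for 1 h or 3 h, and cells that received Pam3CSK4 at 10 ng/ml for 1 h or 3 h, with 2 libraries in each of the 5 groups (n = 2 throughout). AmTARS is an enzyme of Akkermansia muciniphila, a bacterium of the gut, that charges tRNA with threonine, and Pam3CSK4 is a synthetic lipopeptide that activates the receptor TLR2; the series title names both as ligands of that receptor. The AmTARS dose is written as 0.5 with the unit mm, so the amounts of the 2 agents cannot be put on a common scale. Whether the libraries of a group stem from separate animals or cultures is not stated, and the p-values then measure the spread between these libraries, which may be technical.

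Apoptosis by the mitochondrial route begins when BAX and BAK1 form pores in the outer mitochondrial membrane. MCL1 and BCL-XL, the product of Bcl2l1, hold the pore formers in check, while the BH3-only proteins BIM (from Bcl2l11), BMF, PUMA (from Bbc3) and BID relieve this restraint or activate the pore formers directly. The product of Cflar, c-FLIP, resembles caspase-8 and limits its activation at death receptors, and its gene is a known target of NF-kB, the transcription factor that Toll-like receptors activate.

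Macrophage markers were abundant in every library. All 8 were listed, and their summed level was 49274 to 53970 CPM (reads scaled to the size of the library). Lyz2 alone gave 42922 to 47748 CPM of this sum, so the sum says little about the others. Mertk was at 62.3 and 67.1 CPM in control and at 28.1 and 35.4 CPM after Pam3CSK4 for 3 h. Cd14 was at 617 and 626 CPM in control and at 1667 and 2084 CPM after Pam3CSK4 for 3 h. None of the 6 lymphocyte and 4 erythroid markers was listed. Of 6 dendritic cell markers Itgax and Ccr7 were listed, with a summed level of 59.4 to 69.1 CPM, and Flt3, Zbtb46, Dpp4 and Xcr1 were not. Fibroblast markers, 4 of 4 listed, summed to 1327 to 1615 CPM, and mast cell and basophil markers, 3 of 4 listed, to 7.61 to 10.2 CPM. Neutrophil markers, 6 of 7 listed (Ly6g was not), summed to 1234 to 1317 CPM in the control libraries and to 1629 to 2112 CPM in the treated ones. Most of this sum came from S100a8 and S100a9. These, Camp and Ltf were higher in all treated libraries than in control. Elane overlapped between treated and control libraries, and Mpo was not higher, at 13.3 and 14.9 CPM in control and 10.9 to 14.8 CPM in treated libraries. Reads in listed genes ranged from 27398791 to 37559810 per library. In these bulk samples fewer cells of a type and less RNA per cell cannot be told apart.

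Promoters of Bmf, Bcl2l11 and Cflar are shown because NF-kB is a known regulator of Cflar and forkhead factors are known regulators of Bcl2l11. Each window runs from 250 bases before to 50 bases after a start site in RefSeq (build GRCm38.p6), and all 9 genes matched, with 16 windows between them. Motifs were searched on both strands: the NF-kB consensus, the forkhead motif GTAAACA, the cyclic AMP response element TGACGTCA, the GC box GGGCGG and the TATA box TATAAA. Capitals mark every match, and positions count from the start site, whose own base is 1. The Bmf window lies at chr2:118549637-118549936 on the minus strand, the Bcl2l11 window at chr2:128125788-128126087 on the plus strand, and the Cflar window at chr1:58711241-58711540 on the plus strand.
Bmf: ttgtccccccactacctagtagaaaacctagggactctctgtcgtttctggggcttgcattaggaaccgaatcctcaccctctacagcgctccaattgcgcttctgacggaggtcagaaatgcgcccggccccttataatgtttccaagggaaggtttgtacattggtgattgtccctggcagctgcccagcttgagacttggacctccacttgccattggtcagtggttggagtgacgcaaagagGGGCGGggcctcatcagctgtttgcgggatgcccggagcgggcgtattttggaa
Bcl2l11: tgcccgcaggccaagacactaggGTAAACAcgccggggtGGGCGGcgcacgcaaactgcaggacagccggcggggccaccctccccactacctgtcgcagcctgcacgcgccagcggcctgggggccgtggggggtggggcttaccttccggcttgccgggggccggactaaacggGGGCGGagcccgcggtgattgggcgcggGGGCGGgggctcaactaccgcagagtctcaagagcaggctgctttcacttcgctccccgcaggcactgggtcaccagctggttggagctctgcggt
Cflar: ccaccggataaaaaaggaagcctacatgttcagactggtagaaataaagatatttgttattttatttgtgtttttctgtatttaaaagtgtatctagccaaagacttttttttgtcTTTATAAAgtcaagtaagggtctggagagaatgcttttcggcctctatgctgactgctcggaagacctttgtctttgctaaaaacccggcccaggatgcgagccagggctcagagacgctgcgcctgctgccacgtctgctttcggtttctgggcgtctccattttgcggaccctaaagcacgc
The Bmf window held a GC box at -4. The Bcl2l11 window held a forkhead match at -227, and GC boxes at -211, -74 and -46. The Cflar window held TATAAA at -132 and an overlapping match on the other strand at -134. None of these windows held the NF-kB consensus, which was present in 1 further window each of Bmf, Bbc3 and Bcl2l1. Of the 16 windows 3 had an NF-kB match, 2 a forkhead match, 9 a GC box, 1 a TATA box and 0 the cyclic AMP response element. Among all 32851 RefSeq windows of this length, 4.51% held the NF-kB consensus, 3.65% the forkhead motif, 1.79% the cyclic AMP response element, 35.7% the GC box and 13.6% the TATA box.

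Per kilobase of the longest protein-coding transcript, a scale that sets genes beside each other only roughly, Mcl1 had the highest level of the 9 genes in all 5 groups. Which transcripts these cells use was not tested, so the order of close neighbours depends on the length chosen. The levels are as deposited. In control macrophages it reached 261 CPM per kb, followed by Bax at 107, Bcl2l1 at 42.2, Bak1 at 38.7, Bcl2l11 at 23.1, Bid at 15.8, Cflar at 14.9, Bmf at 8.19 and Bbc3 at 6.22 CPM per kb. No neighbours in this order overlapped between the control libraries. After 3 h of Pam3CSK4 the order was Mcl1 at 302, Bax at 145, Bcl2l1 at 45.3, Bak1 at 44.9, Cflar at 24.0, Bcl2l11 at 14.7, Bid at 13.9, Bbc3 at 6.13 and Bmf at 3.22 CPM per kb. Cflar thus stood above Bcl2l11 and Bid, which it followed in control cells, and Bmf took the lowest place. In that group the libraries of Bcl2l1 and Bak1 overlapped, as did those of Bcl2l11 and Bid.

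**Figure D1:**
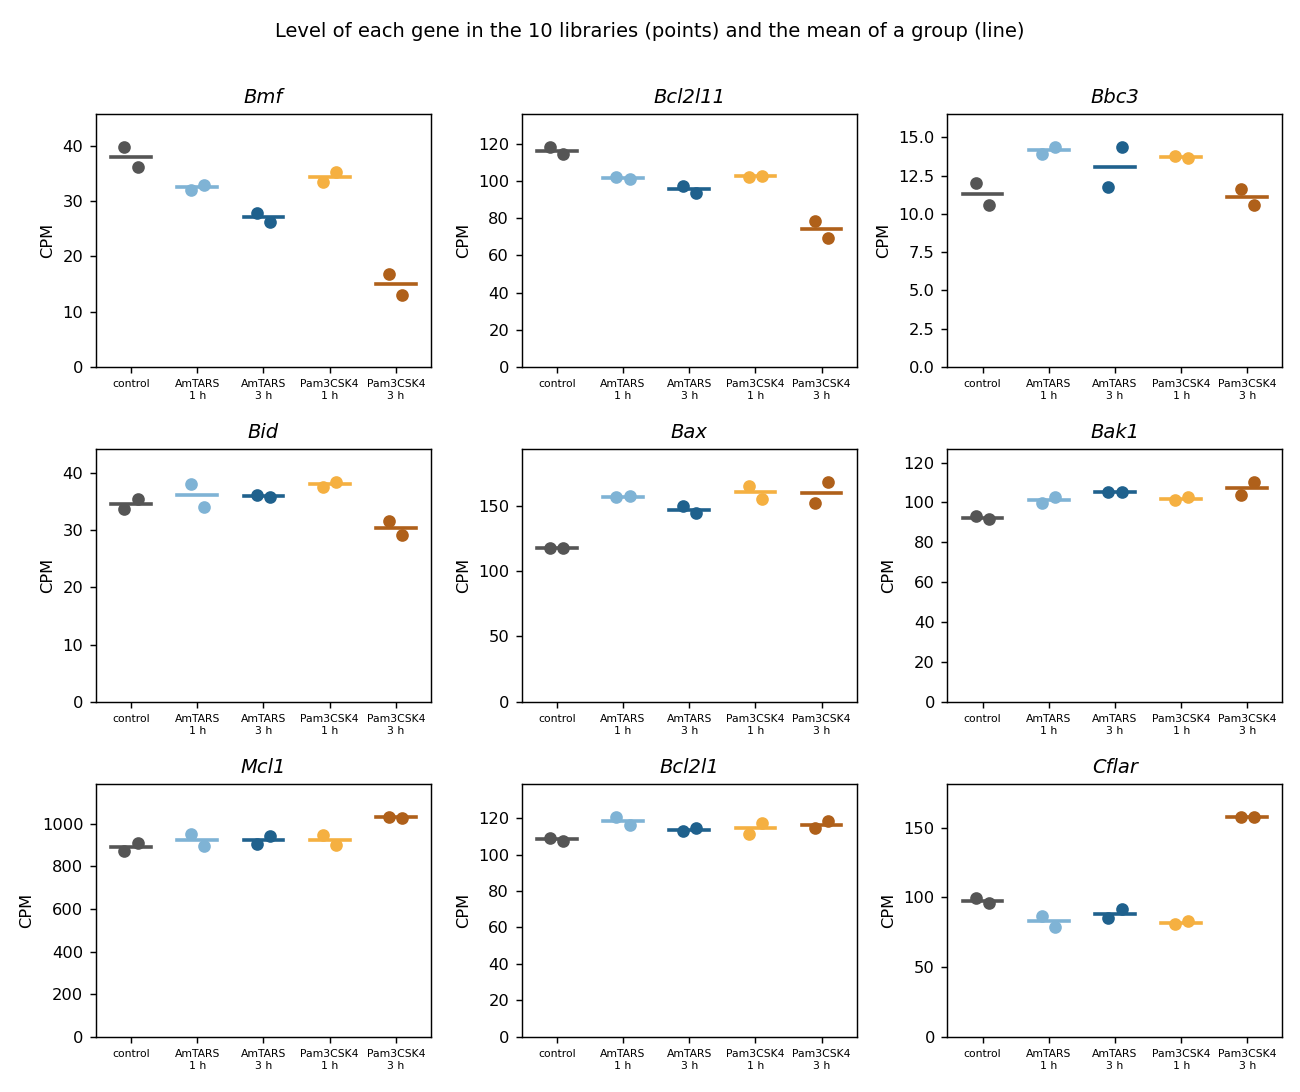
Level of each of the 9 genes in CPM (vertical axes, linear from 0) in the 10 libraries, by group; points are libraries and lines the mean of a group. Bmf is lowest at 13.0 and 16.8 CPM and Cflar highest near 158 CPM after 3 h of Pam3CSK4.

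Treated and control libraries differed along transcript length. Across 11361 genes, which are not independent replicates and share the same libraries, Spearman's rho between length and the log2 fold change against control was -0.742 for AmTARS at 1 h, -0.672 for AmTARS at 3 h, -0.739 for Pam3CSK4 at 1 h and -0.514 for Pam3CSK4 at 3 h. The 9 genes span that range: Bax has a transcript of 1100 nt, Bbc3 1814, Bid 2189, Bak1 2387, Bcl2l1 2568, Mcl1 3418, Bmf 4642, Bcl2l11 5036 and Cflar 6572 nt, against a median of 3112 nt over the tested genes. Changes against control are given as deposited, and values called corrected were computed after each library was corrected for length and GC content. Between the ligands at 3 h rho was -0.0067.

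**Figure D2:**
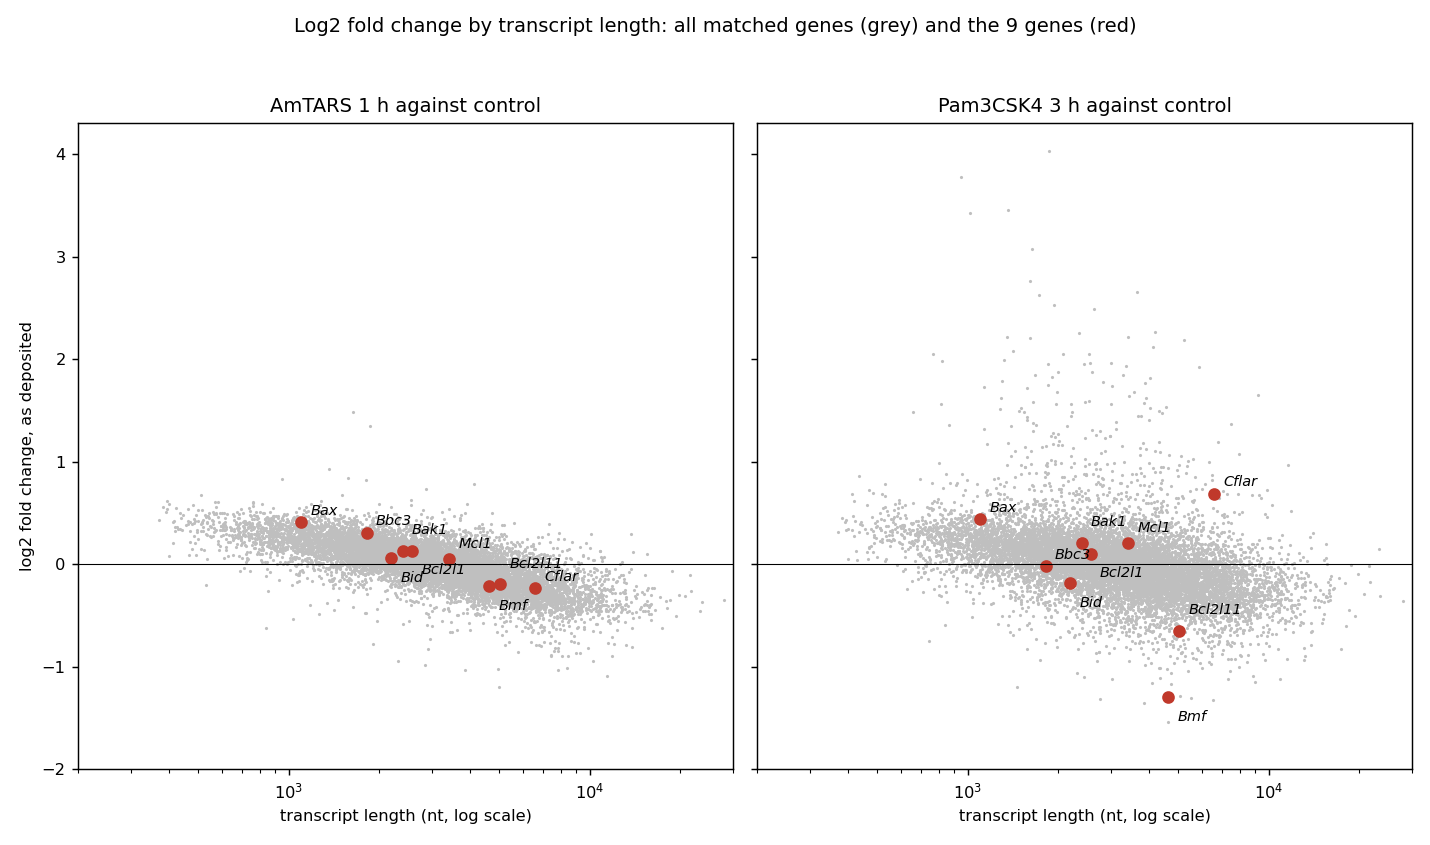
Log2 fold change against control as deposited (vertical axis) by transcript length in nt (horizontal log axis) for AmTARS at 1 h and Pam3CSK4 at 3 h; grey points are all matched genes and red points the 9 genes. At 1 h the 9 genes lie within the grey band, and at 3 h of Pam3CSK4 Bmf (-1.30), Bcl2l11 (-0.65) and Cflar (0.69) lie at its edges.

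Pam3CSK4 for 3 h lowered 2 BH3-only genes and raised Cflar by the largest amounts among the 9. Bmf and Bcl2l11, whose products promote death, fell to 0.406 and 0.638 of control, as ratios of CPM + 1, and Cflar, whose product blocks caspase-8, rose to 1.61 of control. In all, 4 of the 9 genes were higher and 3 lower, where 24.7% of all tested genes were called higher and 24.2% lower. After the length and GC correction 4 were higher and 4 lower, against 20.7% and 21.3% of all genes. The median log2 fold change of the 9 was 0.10 as deposited, against -0.01 over all genes tested, and the median size of change was 0.21 against 0.18.

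Among the BH3-only genes, Bmf codes for a protein held at the cytoskeleton until stress frees it, and it lies on chromosome 2 from 118528757 to 118549687 (GENCODE M21, build GRCm38, minus strand). Its level was 39.9 and 36.2 CPM in the control libraries, 32.1 and 32.9 after AmTARS for 1 h, 27.9 and 26.3 after AmTARS for 3 h, 33.4 and 35.4 after Pam3CSK4 for 1 h, and 16.8 and 13.0 after Pam3CSK4 for 3 h. Both control libraries were above all treated ones, and the libraries given Pam3CSK4 for 3 h were below all others. Against control, Bmf fell by 1.30 on the log2 scale after Pam3CSK4 for 3 h (SE 0.08, adjusted p = 2.16e-10), and the value was -1.19 after the correction. In that comparison it ranked 6 from the lowest log2 fold change among the 11407 tested genes, given here as a description. The 2 libraries of Pam3CSK4 at 3 h differed by 0.34 in log2, which is more than any other pair did for Bmf, and less than the change. AmTARS for 3 h lowered Bmf by a smaller amount, 0.47 (SE 0.08, adjusted p = 0.000334), and the value was -0.39 after the correction (adjusted p = 0.000634).

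Bcl2l11, the gene of BIM, a main killer of myeloid and lymphoid cells deprived of growth factor, lies on chromosome 2 from 128126038 to 128162547. Its level was 119 and 114 CPM in control libraries, 102 and 101 after AmTARS for 1 h, 97.4 and 93.8 after AmTARS for 3 h, 102 and 103 after Pam3CSK4 for 1 h, and 78.6 and 69.5 after Pam3CSK4 for 3 h. The control libraries were again above all treated ones and the Pam3CSK4 libraries of 3 h below all others. It fell by 0.65 after Pam3CSK4 for 3 h (SE 0.05, adjusted p = 8.58e-09; -0.50 after the correction) and by 0.28 after AmTARS for 3 h (SE 0.05, adjusted p = 0.000624). After the correction the AmTARS change was -0.14 (adjusted p = 0.0387).

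After Pam3CSK4 for 3 h the other BH3-only genes had smaller differences than Bmf and Bcl2l11. Bbc3, the gene of PUMA and a target of p53, was at 12.0 and 10.6 CPM in control and at 11.6 and 10.6 CPM after Pam3CSK4 for 3 h, so that these groups overlapped. Its difference was -0.02 as deposited (95% interval -0.21 to 0.17, adjusted p = 0.893), and -0.24 after the correction (adjusted p = 0.0296). Bid, whose product is cut by caspase-8 and carries the death receptor signal to mitochondria, was at 33.8 and 35.6 CPM in control and at 31.6 and 29.1 CPM after Pam3CSK4 for 3 h, where it fell by 0.19 (SE 0.06, adjusted p = 0.0221; -0.25 after the correction). Without control replicate 3 the change was -0.15 (adjusted p = 0.152), and without Pam3CSK4 3 h replicate 3 it was -0.13 (adjusted p = 0.196), so the call for Bid rests on these libraries. Bid overlaps Bcl2l13 on the opposite strand, and Bak1 overlaps Ggnbp1 likewise. Whether strand was used in counting is not given in the sources used here, so reads of these partners may not be separated. On the same strand, Bax overlaps the protein-coding Gm45808 and Bid overlaps Gm44260, neither among the listed genes. Strand cannot separate reads of these.

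The pore formers Bax and Bak1 were higher in every treated group than in control as deposited. After the correction both were called only for Pam3CSK4 at 3 h. For Pam3CSK4 at 1 h the corrected values were 0.002 for Bax and 0.0003 for Bak1. Bax lies on chromosome 7 from 45461697 to 45466898, and its transcript is the shortest of the 9. It was at 118 CPM in both control libraries and at 144 to 168 CPM in the 8 treated libraries, without overlap. The log2 fold change was 0.44 after Pam3CSK4 for 3 h as deposited (adjusted p = 1.08e-06) and 0.13 after the correction (adjusted p = 0.0116), and with AmTARS for 3 h it moved from 0.32 (adjusted p = 0.000151) to 0.02 (adjusted p = 0.792). Summed neutrophil markers, mostly S100a8 and S100a9, were also higher in the treated libraries (at least 1629 CPM) than in control (at most 1317 CPM). The neutrophil marker Mpo was not higher, and the part of neutrophils in the Bax values was not tested. Bak1 was at 93.0 and 91.8 CPM in control and at 104 and 110 CPM after Pam3CSK4 for 3 h, a rise of 0.21 (SE 0.05, adjusted p = 0.00124) and of 0.12 after the correction (adjusted p = 0.0147).

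Of the genes of the protective BCL2 family proteins, Mcl1 rose after Pam3CSK4 for 3 h and Bcl2l1 was not past the threshold. Mcl1, which codes for a short-lived protein that neutrophils and other blood cells need for survival, lies on chromosome 3 from 95658788 to 95663176. It was at 874 and 909 CPM in control, 955 and 897 after AmTARS for 1 h, 908 and 944 after AmTARS for 3 h, 950 and 901 after Pam3CSK4 for 1 h, and 1035 and 1026 after Pam3CSK4 for 3 h. The last group stood above all other libraries. Its rise of 0.21 (SE 0.05, adjusted p = 0.00111; 0.26 after the correction) was 0.02 when the libraries were quantile scaled (adjusted p = 0.729), so the call depends on the scaling. Bcl2l1, the gene of BCL-XL, ranged from 107 to 121 CPM over all libraries, and its difference after Pam3CSK4 for 3 h was 0.10 (95% interval 0.00 to 0.20, adjusted p = 0.0863; 0.04 after the correction).

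Cflar, on chromosome 1 from 58711508 to 58758884, has the longest transcript of the 9. Its level was 99.1 and 96.1 CPM in control libraries, 86.8 and 78.9 after AmTARS for 1 h, 85.1 and 91.5 after AmTARS for 3 h, 81.0 and 82.7 after Pam3CSK4 for 1 h, and 158 in both libraries after Pam3CSK4 for 3 h. Pam3CSK4 at 3 h was thus the only group above control, and the other treated libraries all lay below it. Against control, Cflar rose by 0.69 after Pam3CSK4 for 3 h (SE 0.05, adjusted p = 2.73e-09), and by 0.88 after the correction. After AmTARS for 3 h it was lower by 0.14 as deposited (log2 fold change -0.14, SE 0.05, adjusted p = 0.0407), and the sign turned to 0.07 after the correction (adjusted p = 0.32). This AmTARS call was also lost without control replicate 2 (-0.12, adjusted p = 0.217), control replicate 3 (-0.17, adjusted p = 0.0784) or AmTARS 3 h replicate 1 (-0.09, adjusted p = 0.357).

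**Figure D3:**
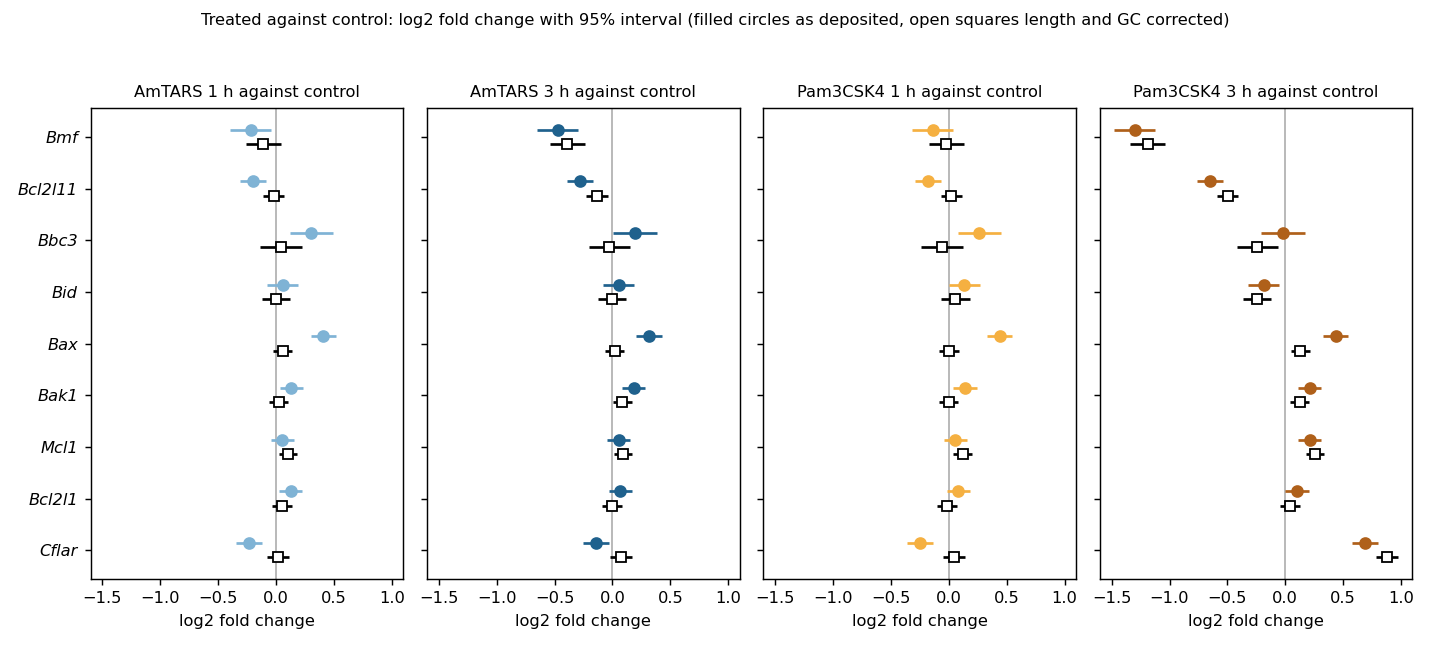
Log2 fold change against control (horizontal axes) of the 9 genes in the 4 treated groups, with the 95% interval of the moderated fit; filled circles are values as deposited and open squares values after the length and GC correction. After the correction no gene is past the threshold at 1 h of AmTARS, and at 3 h of Pam3CSK4 Bmf, Bcl2l11 and Cflar stand farthest from 0.

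AmTARS for 3 h called 5 of the 9 genes against control as deposited, 2 higher (Bax and Bak1) and 3 lower (Bmf, Bcl2l11 and Cflar), where 18.8% of all genes were called higher and 17.9% lower. After the correction 2 were called, Bmf and Bcl2l11, both lower, where 7.59% of all genes were lower and 10.8% higher. Bak1 was then at 0.09 (adjusted p = 0.141). For Bbc3, Bid, Mcl1 and Bcl2l1 the log2 differences as deposited were 0.19, 0.05, 0.05 and 0.07, with adjusted p from 0.104 to 0.552.

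At 1 h, no change against control that was called as deposited was still called after the correction, with either ligand. AmTARS gave 4 higher genes (Bbc3 0.31, Bax 0.41, Bak1 0.13 and Bcl2l1 0.13) and 3 lower ones (Bmf -0.22, Bcl2l11 -0.20 and Cflar -0.24), where 18.9% of all genes were called higher and 19.8% lower. Pam3CSK4 gave 3 higher genes (Bbc3 0.26, Bax 0.44 and Bak1 0.14) and 2 lower ones (Bcl2l11 -0.18 and Cflar -0.25), where 23.9% of all genes were called higher and 24.8% lower. The genes called lower were among the 3 with the longest transcripts, and those called higher had transcripts shorter than the median. After the correction limma called 0 of the 9 for AmTARS, against 14% of all genes, with Mcl1 as the 1 gene at an unadjusted p below 0.05; the corrected values ran from -0.11 for Bmf to 0.11 for Mcl1. For Pam3CSK4 it called 1, Mcl1, which was higher by 0.12 (adjusted p = 0.0267), where 11.6% of all genes were called higher. Mcl1 was at 0.05 as deposited (adjusted p = 0.363), and its libraries overlapped those of control. Over the alternatives its value ran from -0.05 to 0.12. The corrected values of the other genes ran from -0.06 for Bbc3 to 0.06 for Bid. As deposited, leaving out any 1 of the libraries compared left fewer of the 9 genes called with either ligand. Fewer of all tested genes were called then as well, so the loss is not particular to the 9. Both comparisons share the control libraries and are not independent of each other.

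With time under Pam3CSK4 the 3 h libraries departed from the 1 h libraries in 6 of the 9 genes, 2 higher and 4 lower, where 16.2% of all genes were called higher and 15.3% lower. After the correction 4 were higher and 3 lower, against 16.4% and 17% of all genes. Cflar rose by 0.94 between 1 h and 3 h (SE 0.05, adjusted p = 2.8e-11), and Bmf fell by 1.16 (SE 0.08, adjusted p = 1.24e-09). Bcl2l11 fell by 0.47 (adjusted p = 1.11e-06), Bid by 0.32 (adjusted p = 0.000737) and Bbc3 by 0.28 (adjusted p = 0.0227). Mcl1 rose by 0.16 (adjusted p = 0.0162; 0.07 and adjusted p = 0.262 with quantile scaling). The Bbc3 change lost its call after the correction (-0.18, adjusted p = 0.113), and without Pam3CSK4 1 h replicate 1, 1 h replicate 3 or 3 h replicate 3 (adjusted p = 0.0988, 0.0611 and 0.153). The Mcl1 change lost it without Pam3CSK4 1 h replicate 3 (0.12, adjusted p = 0.135).

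With time under AmTARS limma called 0 of the 9 genes between 1 h and 3 h, where 2.38% of all genes were called. At an unadjusted p below 0.05 there was 1, Bmf, and voom on the recovered reads called 0. Bmf differed by -0.25 (95% interval -0.43 to -0.08, adjusted p = 0.159) as deposited and by -0.28 after the correction (adjusted p = 0.0289), where 1.39% of all genes were called lower.

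**Figure D4:**
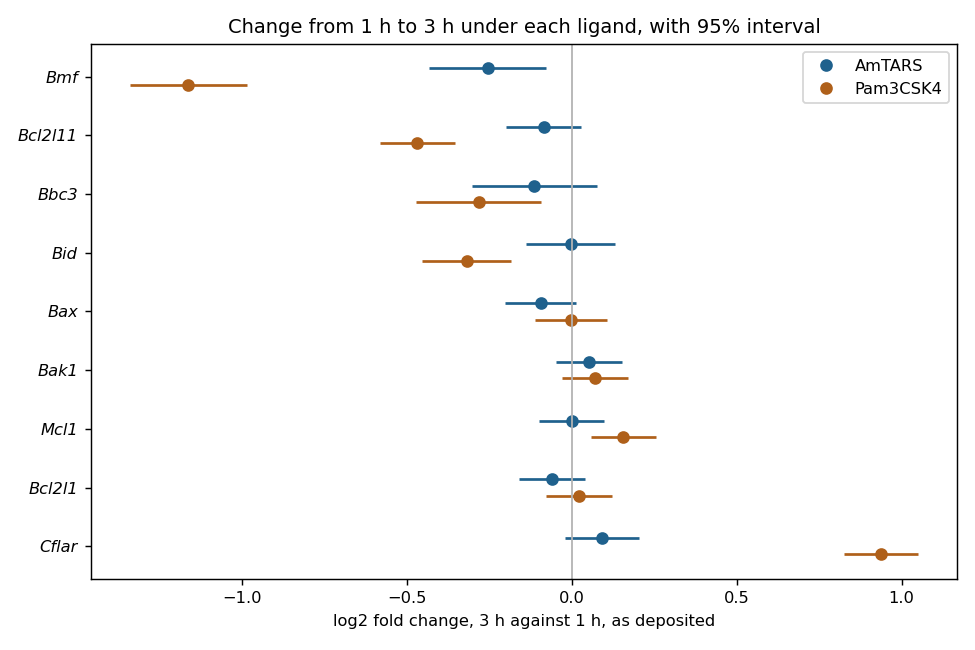
Log2 fold change from 1 h to 3 h as deposited (horizontal axis) of the 9 genes under each ligand, with the 95% interval of the moderated fit; blue points are AmTARS and orange points Pam3CSK4. The intervals of the ligands do not overlap for Bmf (-0.25 and -1.16), Bcl2l11 (-0.09 and -0.47), Bid (0.00 and -0.32) and Cflar (0.09 and 0.94).

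Between the ligands, none of the 9 genes was called at 1 h and 5 were at 3 h. At 1 h limma called 0 of the 9 between AmTARS and Pam3CSK4, where 0.184% of all genes were called, and 0 had an unadjusted p below 0.05; voom on the recovered reads called 0 too. The widest 95% interval of these differences, that of Bbc3, ran from -0.15 to 0.23, and that of Cflar from -0.10 to 0.13. At 3 h, AmTARS left Bmf higher than Pam3CSK4 by 0.83 (SE 0.08, adjusted p = 3.74e-07), Bcl2l11 by 0.37 (SE 0.05, adjusted p = 4.61e-05) and Bid by 0.24 (SE 0.06, adjusted p = 0.0126). It left Cflar lower, at -0.83 (SE 0.05, adjusted p = 4.31e-10), and Mcl1 lower, at -0.15 (SE 0.05, adjusted p = 0.0268). Of the 9 genes 3 were thus higher and 2 lower with AmTARS, where 8.04% of all genes were higher and 9.08% lower. After the correction the values were 0.80, 0.36, 0.24, -0.81 and -0.16 in the same order, all called, where 11.1% of all genes were higher and 10.8% lower. The Mcl1 difference was -0.09 with quantile scaling (adjusted p = 0.22). Without AmTARS 3 h replicate 3 or without Pam3CSK4 3 h replicate 3 the calls of Bid and Mcl1 were lost. The Bid call was also lost without AmTARS 3 h replicate 1 (adjusted p = 0.0858), and the Mcl1 call without any 1 of the 4 libraries compared (adjusted p = 0.0572 to 0.237).

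The change from 1 h to 3 h itself differed between the ligands for 4 of the 9 genes, 3 with a higher and 1 with a lower value, where 3.49% of all genes were called higher and 5.71% lower. The difference, AmTARS minus Pam3CSK4, was 0.91 for Bmf (SE 0.12, adjusted p = 2.62e-05), 0.38 for Bcl2l11 (SE 0.08, adjusted p = 0.00218), 0.32 for Bid (SE 0.09, adjusted p = 0.0328) and -0.85 for Cflar (SE 0.08, adjusted p = 2.21e-07). For Bbc3, Bax, Bak1, Mcl1 and Bcl2l1 it was not past the threshold, with values from -0.16 to 0.17. The Bid call was lost without AmTARS 1 h replicate 3, AmTARS 3 h replicate 1 or 3, Pam3CSK4 1 h replicate 1 or 3, or Pam3CSK4 3 h replicate 3 (adjusted p = 0.0607 to 0.178).

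Other genes of the pathway were taken from 6 lists that hold 65 genes, 59 of them tested. List names are headings, and the role of each gene in these cells was not tested. Bcl2l10, Bik, Hrk, Bcl2l14, Fasl and Trim17 were not among the listed genes. After 3 h of Pam3CSK4 the median log2 fold change of the lists was 0.18 for other BCL2 family genes, 0.05 for death receptor and necroptosis genes, -0.09 for the apoptosome and caspases, 0.18 for IAPs and their antagonists, 0.21 for regulators of BH3-only genes and -0.11 for turnover and phosphorylation genes, against -0.01 over all genes tested. Over all genes, 24.7% were called higher and 24.2% lower after 3 h of Pam3CSK4 as deposited, and 20.7% and 21.3% after the correction. Of the other BCL2 family genes, 6 of 11 were higher and 1 lower after 3 h of Pam3CSK4, and 7 and 1 after the correction. The Bcl2a1 genes code for the anti-apoptotic protein A1: Bcl2a1a rose by 1.98 (SE 0.12, adjusted p = 1.2e-10; 1.72 after the correction), Bcl2a1d by 1.35 (1.10 corrected) and Bcl2a1b by 0.59 (0.33 corrected). These paralogs are nearly identical, so the split of reads between them is uncertain. Bcl2a1a was at 7.25 and 8.52 CPM in control libraries and at 27.9 and 41.6 CPM after Pam3CSK4 for 3 h, without overlap. After AmTARS for 3 h, 5 of 11 were higher and 1 lower, against 18.8% and 17.9% of all genes, and Bcl2a1a rose by 0.68 (adjusted p = 0.0004; 0.47 after the correction). After the correction 3 were higher and 0 lower, against 10.8% and 7.59% of all genes.

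At death receptors, 5 of 13 genes were higher and 2 lower after 3 h of Pam3CSK4, where 24.7% of all genes were higher and 24.2% lower. After the correction 4 were higher and 1 lower, against 20.7% and 21.3% of all genes. Fas, the death receptor itself, rose by 1.49 (SE 0.10, adjusted p = 1.7e-10; 1.32 after the correction), from 16.6 and 19.5 CPM to 45.8 and 59.9 CPM. Tnfrsf1b, the second receptor of tumour necrosis factor, rose by 0.63 (0.68 corrected), and Tnfsf10, the ligand TRAIL, fell by 0.66 (-0.54 corrected). With AmTARS for 3 h, 5 of 13 were higher and 1 lower, against 18.8% and 17.9% of all genes. After the correction 4 were higher and 0 lower with AmTARS, against 10.8% and 7.59% of all genes. Fas rose by 0.48 with AmTARS for 3 h (adjusted p = 0.00087), and by 0.35 after the correction. Between the ligands at 3 h, Fas was lower with AmTARS by 1.02 (log2 fold change -1.02, adjusted p = 1.1e-07).

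Downstream, 1 of 9 apoptosome and caspase genes was higher and 3 lower after 3 h of Pam3CSK4, both as deposited, where 24.7% of all genes were higher and 24.2% lower, and after the correction, where 20.7% were higher and 21.3% lower. The lower genes were not all the same ones before and after the correction. Cycs, the gene of cytochrome c, rose by 0.43 (0.42 corrected), while Casp2 fell by 0.62 (-0.57 corrected) and Casp9, the initiator caspase that the apoptosome activates, by 0.27 (-0.21 corrected). Of the IAP genes and their antagonists, 4 of 8 were higher and 2 lower, and 4 and 1 after the correction, against the same shares. Birc3, whose product is a ubiquitin ligase that favours survival signalling at tumour necrosis factor receptors, rose by 0.97 (SE 0.05, adjusted p = 8.2e-12; 0.97 after the correction), from 58.7 and 60.2 CPM to 114 and 122 CPM, and by 0.29 with AmTARS for 3 h (adjusted p = 0.00034; 0.30 corrected). Birc6, with a very long transcript, was at -0.36 as deposited and at -0.07 after the correction (adjusted p = 0.24).

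The list headed regulators of BH3-only genes also holds Cdkn1a and Rnf144b, whose action on BH3-only genes was not tested. Of its 9 genes, 5 were higher and 4 lower after 3 h of Pam3CSK4, where 24.7% of all genes were higher and 24.2% lower. After the correction 3 were higher and 4 lower, against 20.7% and 21.3% of all genes. Rnf144b, which codes for a ubiquitin ligase, fell by 1.54 (SE 0.08, adjusted p = 6.7e-12; -1.41 after the correction), from 31.4 and 33.1 CPM to 9.32 and 11.6 CPM. Foxo3, the forkhead factor known to activate Bcl2l11 and Bbc3, fell by 0.71 (SE 0.13, adjusted p = 0.00012; -0.50 after the correction), and Cdkn1a, a p53 target, rose by 0.58 (0.48 corrected). With AmTARS for 3 h, 4 were higher and 4 lower, against 18.8% and 17.9% of all genes, and 1 higher and 2 lower after the correction, against 10.8% and 7.59%. Foxo3 moved from -0.42 (adjusted p = 0.014) to -0.23 (adjusted p = 0.14). At 1 h Foxo3 was already at -0.79 with Pam3CSK4 (-0.54 corrected) and at -0.62 with AmTARS (-0.39 corrected). The corrected Bcl2l11 values at 1 h were 0.02 and -0.02 in the same order. A part of Foxo3 in the Bcl2l11 or Bbc3 values was not tested. Of 9 genes for turnover and phosphorylation of BCL2 family proteins, 2 were higher and 4 lower after 3 h of Pam3CSK4, and 2 and 3 after the correction, against the shares of all genes given for the regulators. Usp9x, whose product removes ubiquitin from MCL1, fell by 0.41 (-0.15 after the correction), Dynll1, a dynein light chain that binds BIM, rose by 0.34 (0.26 corrected), and Huwe1, a ubiquitin ligase of MCL1, was at -0.35 as deposited and -0.05 after the correction (adjusted p = 0.47).

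**Figure D5:**
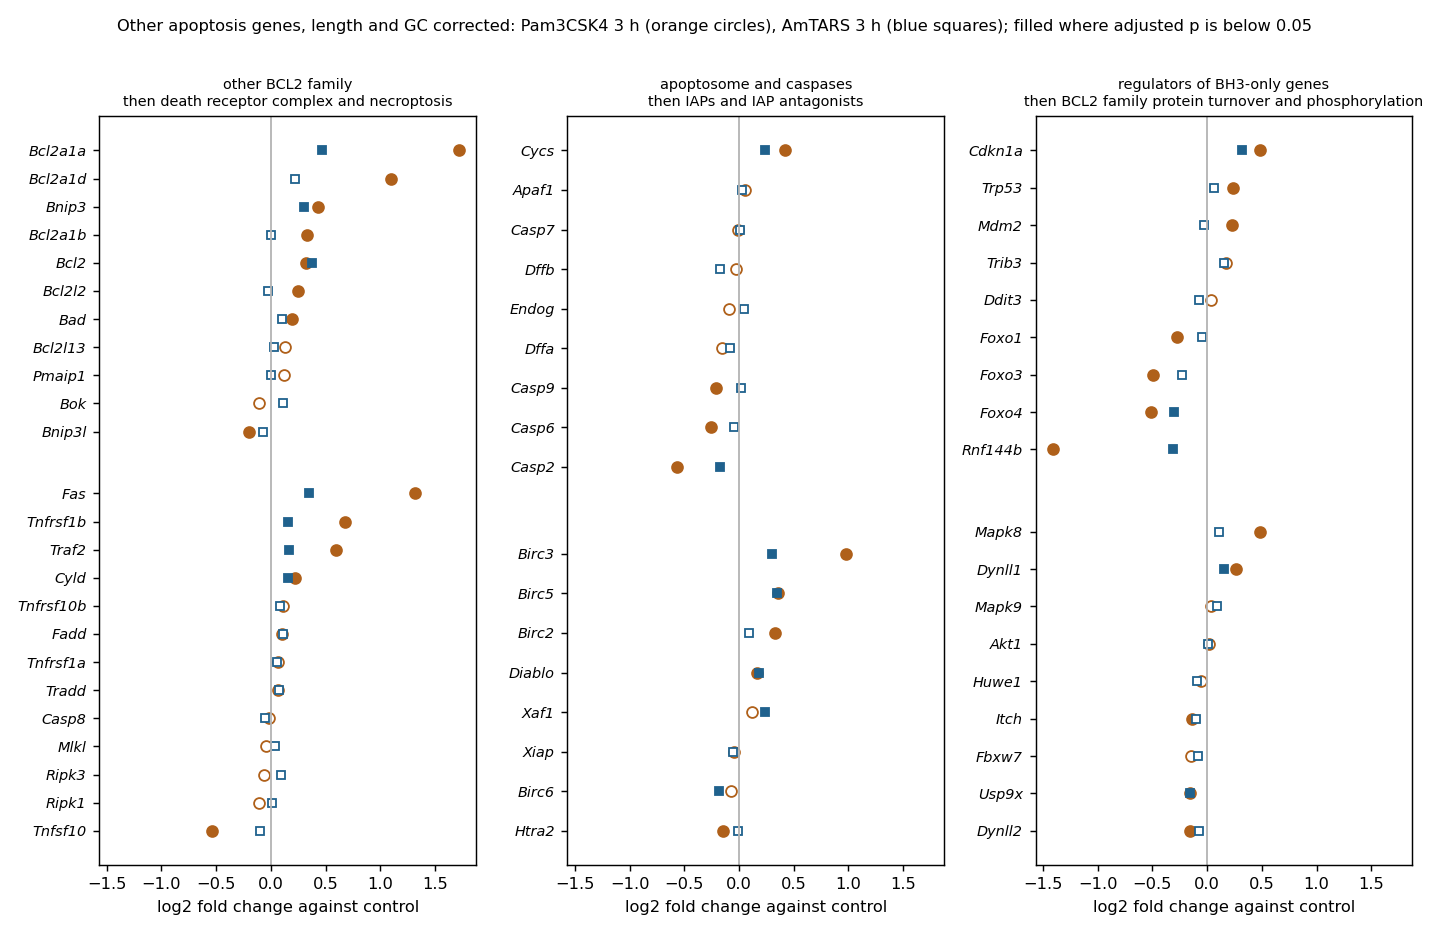
Log2 fold change against control after the length and GC correction (horizontal axes) of the 59 other genes, in 6 lists; orange circles are Pam3CSK4 at 3 h, blue squares AmTARS at 3 h, and filled symbols have an adjusted p below 0.05. Bcl2a1a (1.72) and Fas (1.32) are the highest under Pam3CSK4, and Rnf144b (-1.41) is the lowest.

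By pattern over the 10 libraries, which fall into 5 groups and share the length trend, the genes most like Bmf were Mettl13 (Pearson's r 0.992), Arhgap25 (0.991) and Abcd2 (0.990). Those most like Bcl2l11 were Slc36a1 (0.994), Tbc1d14 (0.990) and Gcnt1 (0.989), and those most like Cflar were Ankrd33b (0.993), Fam102b (0.989) and Malt1 (0.988). Bax was most like Chmp4b (0.988), Camp (0.986) and Dad1 (0.985), and Bak1 most like Mief2 (0.983), Efhd2 (0.983) and Arhgdia (0.980). Mcl1 was nearest to Ensa (0.972), and Bid to Nudt13 (0.963). Bbc3 and Bcl2l1 had the loosest matches, with Hk3 at 0.917 and Trmt2a at 0.888.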

How the data were processed

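Poly-A selected stranded libraries were aligned with STAR 2.5.1 to mm10, and R 3.3.0 was used, per the submitters' processing notes. No source used here names the counting tool, annotation or scaling. The deposited values are log2(CPM + 1), and 100% of them are whole reads to within 0.1 read. Genes that averaged 1 CPM or more were fitted in limma 3.58.1 (R 4.3.3) with 1 mean per group over all 10 libraries and an intensity trend, leaving 5 residual and 14.7 prior degrees of freedom. P-values were adjusted by Benjamini-Hochberg over all tested genes in each of 9 contrasts, with 0.05 as the threshold for a call. SE is the moderated standard error; fold changes on this scale understate the change of low genes. Length and GC content of 11361 tested genes came from the longest protein-coding transcript of GENCODE M21, and the correction removed natural splines of both (5 degrees of freedom each) from each library. Alternatives were other filters and pseudocounts, quantile scaling, voom on the recovered reads, a replicate term, fits on the compared groups alone and leaving out each library. The calculation was tested on simulated data. Figures were drawn with matplotlib 3.10.9.

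The members, the 6 other lists and the tests were chosen with earlier results of these data known. The text names the 9 members, up to 3 genes per list and comparison with the largest called change, and up to 3 genes of most similar pattern, leaving out symbols that begin with Gm and a digit or end with Rik; a list gene named for a comparison is also followed in others. 1 gene of these lists is not reported here, and list counts and medians leave it out.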

Additional observations from a re-analysis of the deposited data

Results flagged for a closer look

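The change from 1 h to 3 h differed between AmTARS and Pam3CSK4, in a test of the difference itself with limma, for 4 of the 9 genes. Over all genes tested, 3.49% were called higher and 5.71% lower in that test. On the log2 scale, AmTARS minus Pam3CSK4, the difference was 0.91 for Bmf (adjusted p = 2.62e-05), 0.38 for Bcl2l11 (adjusted p = 0.00218), 0.32 for Bid (adjusted p = 0.0328) and -0.85 for Cflar (adjusted p = 2.21e-07). Those of Bmf, Bcl2l11 and Cflar were called under all 17 alternatives run, with adjusted p up to 0.000347, 0.0185 and 2.39e-05. That of Bid was called under 10 of 17, with adjusted p from 0.0134 to 0.178. The libraries given Pam3CSK4 for 3 h differ from each other more than those of any other group (chi-square per degree of freedom 9.25, against 3.62 to 5.06). Leaving out 1 of them at a time was among the 17 alternatives. Over these the difference ran from 0.74 to 1.08 for Bmf and from 0.30 to 0.47 for Bcl2l11. It ran from 0.24 to 0.40 for Bid and from -0.91 to -0.72 for Cflar. The part of this spread in the differences was not tested further.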

How the results depend on the processing

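The length and GC correction left 0 of 9 genes and 1587 of all genes called for AmTARS at 1 h (7 and 4415 as deposited), 2 and 2092 for AmTARS at 3 h (5 and 4186), 1 and 2600 for Pam3CSK4 at 1 h (5 and 5556), and 1 and 473 for AmTARS 3 h against 1 h (0 and 271). It turned the sign of Cflar (0.015 for AmTARS at 1 h, 0.070 for AmTARS at 3 h, 0.041 for Pam3CSK4 at 1 h), and for Pam3CSK4 at 1 h of Bcl2l11 (0.022) and Bbc3 (-0.058), and of Bax for Pam3CSK4 3 h against 1 h (0.13). Fitting the compared groups alone gave 42 genes between the ligands at 1 h (21 before), and 1 member and 492 genes for AmTARS 3 h against 1 h. Replicate numbers are not stated to pair the libraries. Of 14 same-numbered pairs 5 had a correlation of deviations above 0.1 (range -0.21 to 0.20). With 2 libraries a group the deviations of a group mirror each other. Some pairs therefore repeat the same value, and these correlations cannot decide whether libraries are paired. With a replicate block 2017 genes (4186 before) were called for AmTARS at 3 h and 672 genes (1049 before) for the difference of the changes. Under this block the calls of Cflar for AmTARS at 3 h, of Bcl2l11 and Bak1 for Pam3CSK4 at 1 h, of Mcl1 for Pam3CSK4 3 h against 1 h and between the ligands at 3 h, and of Bid for the difference of the changes were not made, and calls of Bbc3 for AmTARS at 3 h and of Bbc3 and Bax between the ligands at 3 h were added. Leaving out 1 library in turn gave 1 to 4 members and 2603 to 3308 genes for AmTARS at 1 h, 4 to 5 and 1997 to 3337 for AmTARS at 3 h, 2 to 3 and 3759 to 5138 for Pam3CSK4 at 1 h, 6 to 7 and 3844 to 5535 for Pam3CSK4 at 3 h, 0 to 0 and 15 to 29 between the ligands at 1 h, 3 to 5 and 1141 to 2103 between them at 3 h, 0 to 0 and 89 to 158 for AmTARS 3 h against 1 h, 4 to 6 and 2381 to 3186 for Pam3CSK4 3 h against 1 h, and 3 to 4 and 675 to 1333 for the difference of the changes. For Bmf, Bcl2l11 and Cflar after Pam3CSK4 for 3 h, all 13 alternatives kept direction and call. With 2 libraries a group and the control time not given, small differences cannot be resolved. Differences near 0.1 in log2 were not always called, even for genes with an SE near 0.05. Bcl2l1 was not called at 0.10 for Pam3CSK4 at 3 h, nor Bax at -0.12 between the ligands at 3 h. The processing moved some values by more than that. Bax for Pam3CSK4 at 1 h went from 0.44 to 0.002 after the correction. Mcl1 for Pam3CSK4 at 3 h went from 0.21 to 0.02 with quantile scaling. The SE was higher for Bmf and Bbc3, at 0.08 and 0.09. Bbc3, for example, was not called at 0.19 for AmTARS at 3 h.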
